A study of Mus musculus with 14 samples.

Results

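The 44 genes described here encode proteins of mitosis, from the kinases that start it to the proteins that part the daughter cells. They were taken as a named list, by the known roles of their products, from the 24833 genes of the count table. All 44 were in that table, and all 44 passed the filter on low counts that left 15466 genes for testing. The lowest count of any of them in any library was 423.

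RNA came from stem cell-enriched bone marrow cells of C57BL/6 mice, sorted by flow cytometry with the SLAM scheme. That scheme takes lineage-negative cells that carry Sca-1 and Kit, and among them keeps those with CD150 and without Flk2 or CD48. Every mouse was injected into the peritoneum. The 4 groups were PBS for 1 day (3 libraries), IL-1β at 0.5 µg per mouse per day for 1 day (3), PBS for 20 days (4) and the same IL-1β dose for 20 days (4). IL-1β is an inflammatory cytokine, and PBS is the saline vehicle. No genetic change is labelled for any group. Age and sex were not stated in the labels used. Replicates were biological, each library being made from the cells of 3 to 5 mice together, so that single animals and single cells are not resolved.

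A cell enters mitosis when cyclin B and the kinase CDK1 become active together, with Polo-like and Aurora kinases acting beside them. Motor proteins then build the spindle, kinetochores tie the chromosomes to it, and a checkpoint holds back the anaphase-promoting complex until every chromosome is attached. Most genes of this program are repressed in resting cells and read out late in the cell cycle, so their RNA is a usual sign of cells in G2 and M phase. Long-term blood stem cells are mostly resting, and inflammation is known to push some of them into division.

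Many promoters of this program carry 2 short elements, the cell cycle genes homology region (CHR), which the MuvB complexes bind, and CCAAT, which the factor NF-Y binds. RefSeq promoters on GRCm38.p6 were given for 36 of the 44 genes, each from 250 bases before to 50 bases after the start of transcription. The search took TTTGAA and TTCGAA as the CHR and CCAAT as the other element, on both strands, so that TTCAAA and ATTGG count as matches. No CHR match overlapped a CCAAT match in the 36 promoters. The stretches below are the last 120 bases before the start, 5′ to 3′ on the strand of the gene, with matches in capitals. They are shown because the genes moved together with IL-1β, and because Cdk1, Cdc20 and Espl1 were those whose response differed by duration. The positions are chr9:70421555-70421674 for Ccnb2 (minus strand), chr10:69352913-69353032 for Cdk1 (minus), chr4:118437344-118437463 for Cdc20 (minus), chr15:102296173-102296292 for Espl1 (plus), chr19:37376262-37376381 for Kif11 (plus), chr11:99024190-99024309 for Top2a (minus) and chr7:135716380-135716499 for Mki67 (minus).
Ccnb2: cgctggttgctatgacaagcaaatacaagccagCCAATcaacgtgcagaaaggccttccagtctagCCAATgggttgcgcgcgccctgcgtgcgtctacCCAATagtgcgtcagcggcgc
Cdk1: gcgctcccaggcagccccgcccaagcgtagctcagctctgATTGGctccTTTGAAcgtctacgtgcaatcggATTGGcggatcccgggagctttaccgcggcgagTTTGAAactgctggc
Cdc20: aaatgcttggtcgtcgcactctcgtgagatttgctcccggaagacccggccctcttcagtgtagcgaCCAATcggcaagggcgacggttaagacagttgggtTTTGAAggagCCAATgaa
Espl1: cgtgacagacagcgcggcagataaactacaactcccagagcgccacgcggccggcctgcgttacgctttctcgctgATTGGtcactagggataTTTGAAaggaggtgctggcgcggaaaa
Kif11: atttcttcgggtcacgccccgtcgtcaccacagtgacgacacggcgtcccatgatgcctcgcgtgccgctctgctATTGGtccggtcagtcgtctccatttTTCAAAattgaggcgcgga
Top2a: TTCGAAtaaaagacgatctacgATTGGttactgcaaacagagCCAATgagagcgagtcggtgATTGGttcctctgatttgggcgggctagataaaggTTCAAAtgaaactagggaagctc
Mki67: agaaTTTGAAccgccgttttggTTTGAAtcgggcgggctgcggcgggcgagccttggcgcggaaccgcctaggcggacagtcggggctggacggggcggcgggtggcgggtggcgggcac

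A CHR match stood in 28 of the 36 promoters (77.8%), against 16.4% of the promoters of 10632 tested genes and 19.2% of all 32851 promoters in the table. Counted only within 50 bases of the start, it stood in 26 (72.2%), against 4.3% of the tested genes. CCAAT stood in 27 of the 36 (75.0%), against 42.4%, and both elements stood in 24 (66.7%), against 6.7%. A pair of CCAAT matches on the same strand, 31 to 34 bases apart, stood in 9 (25.0%), against 1.9% of the tested genes. That spacing was chosen after the sequences were seen. The 9 were Ccnb1, Ccnb2, Cdk1, Aurka, Nek2, Cdca8, Spc25, Hmmr and Ube2c. The Ccnb2 stretch above shows CCAAT on 1 strand and no CHR, since its CHR matches lie outside those 120 bases. Pttg1, Birc5, Mad2l1, Nuf2 and Nusap1 held neither set of letters in the 300-base window. The gene model of Pttg1 begins 270 bases before its RefSeq start, so its window lies inside the gene and may miss another start. The windows of Cdca8 (2394 bases), Kif2c (3867) and Kif4 (328) also lie inside their gene models. A match describes letters and shows no binding.

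Library totals lay between 21654896 and 29441947 counts. Levels are given in counts per 1e6 library counts (CPM) scaled by TMM, which equalises most genes between libraries, with the libraries of a group in the order of their replicate numbers. Effects are log2 ratios, IL-1β relative to PBS, from edgeR's quasi-likelihood fit, given ± an approximate SE. A gene is said to have risen or fallen where its Benjamini-Hochberg adjusted p over all tested genes was under 0.05. The library titles fall into 4 naming sets that each hold both treatments at 1 duration, and the fit has a term for them. These are "10k" (replicate 3 of both 1-day groups), "E060216" (the other 1-day libraries), "E061316" (replicates 1 and 2 at 20 days) and libraries without a tag (replicates 3 and 4 at 20 days). IL-1β 20-day replicate 3 held transcripts of neutrophil genes that the other libraries nearly lacked, and PBS 20-day replicate 4 deviated from its group by transcript length. Results at 20 days are therefore also given without them.

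After 1 day of IL-1β, 42 of the 44 mitosis genes rose and none fell, where 2.52% of all tested genes were called higher and 1.83% lower. Their median log2 fold change was 0.87 (1.83-fold), against -0.01 over all tested genes. With upper-quartile scaling the calls over all genes were 344 higher and 399 lower, against 389 and 283 here, and the mitosis genes still gave 42 and 0. Of the 44 genes, 42 were also higher in every IL-1β library than in any PBS library, which held for 8.75% of tested genes. No gene was lower at an unadjusted p under 0.05, and DESeq2 also called 42 higher and 0 lower (741 and 657 over all tested genes). The 2 genes not called were Pttg1 and Ect2. With any 1 of the 14 libraries left out, 32 of the 42 calls held; Cdc25b, Foxm1, Cdca8, Ttk, Cenpf, Spc25, Kif4, Tpx2, Hmmr and Kif23 each lost theirs in at least 1 such fit, 9 of them without PBS 1-day replicate 2. Summed over the 44 genes, the level was 4830, 4582 and 5082 CPM with PBS and 9461, 8967 and 7700 with IL-1β. IL-1β replicate 3, of the "10k" set, was the lowest of its group and still far above the 3 PBS libraries. More dividing cells and more of this RNA in each cell cannot be told apart in such bulk samples.

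**Figure D1:**
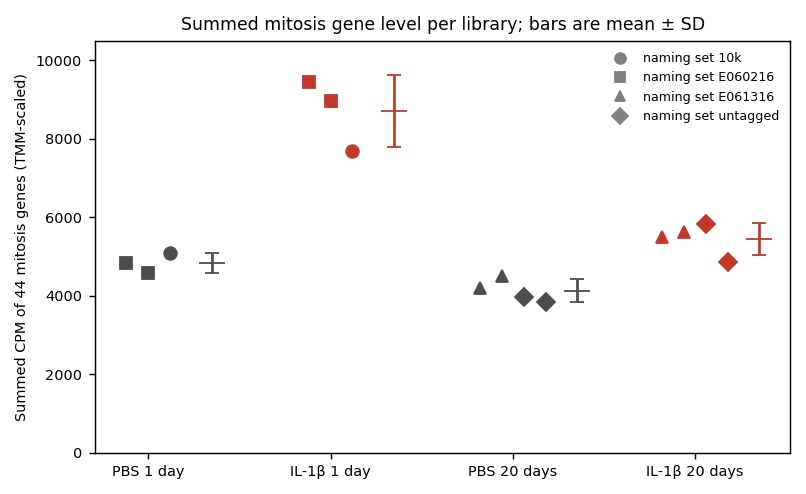
Summed CPM of the 44 mitosis genes in each of the 14 libraries, by treatment group, with mean ± SD beside the points; the shape of a point gives the naming set. The IL-1β libraries sit above all PBS libraries of their duration, between 7700 and 9461 CPM at 1 day and between 4871 and 5826 at 20 days.

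After 20 days of IL-1β, 29 of the 44 genes were higher and none lower, where 3.94% of tested genes were called higher and 3.52% lower (7.46% in all). The median log2 fold change was 0.40 (1.32-fold), against 0.00 over all tested genes (-0.000344). At least 1.5-fold differences were fitted for 4 genes at 20 days (Kif4, Cdc25c, Cenpa and Kif2c) and for 42 at 1 day, and at least 2-fold differences for 0 and 6. The groups did not overlap for 21 genes, against 5.39% of tested genes, and overlapped for 23. No gene was lower at an unadjusted p under 0.05, and DESeq2 called 35 higher and 0 lower (922 and 887 over all tested genes). All 29 genes called at 20 days (100%) were among the 42 called at 1 day, of which they made up 69.0%. The summed level was 4198, 4502, 3961 and 3853 CPM with PBS and 5486, 5620, 5826 and 4871 with IL-1β, again without overlap. The count of calls was less stable than at 1 day: it was 11 without IL-1β replicate 3, 13 without PBS replicate 1, 19 without PBS replicate 3 and 19 without IL-1β replicate 1. Without a term for the naming sets it was 9, and with the 20-day libraries alone 19. Calls over all tested genes changed as well, from 609 higher in the full fit to 275 and 422 in those fits. In the fits just named with a library left out they were 376 to 505. The calls that held in every fit with 1 library left out were 10, those of Ccnb1, Cdc25c, Aurka, Cenpa, Cenpe, Kif15, Kif4, Kif2c, Prc1 and Anln.

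**Figure D2:**
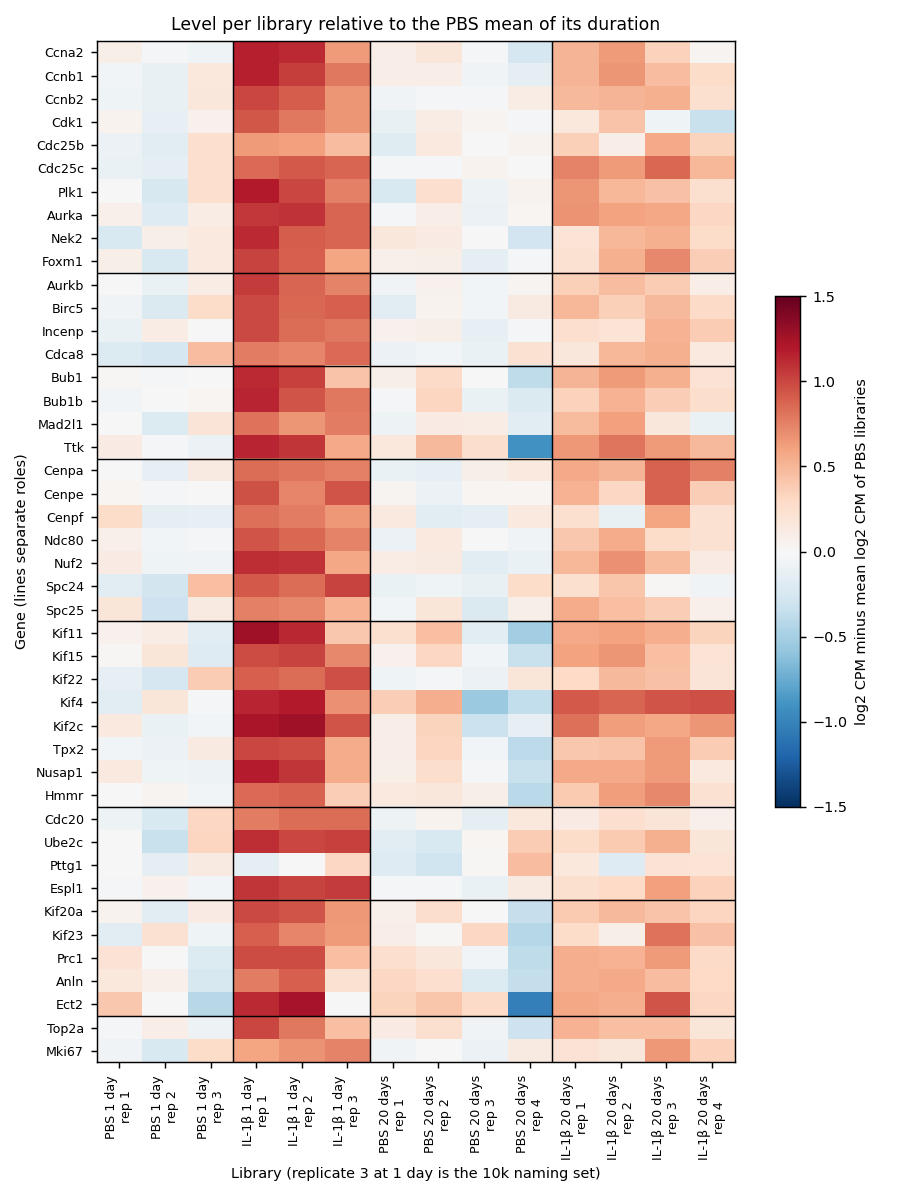
Level of each mitosis gene (rows, separated by role) in each library (columns), as log2 CPM minus the mean log2 CPM of the PBS libraries of that duration; red is higher and blue lower. The 3 IL-1β libraries of 1 day are red throughout except for Pttg1 and for Ect2 in replicate 3, and the 4 of 20 days are paler.

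The 20-day IL-1β library replicate 3 stood apart in the cells it held. Its summed level of 13 neutrophil genes, in CPM of the library total without TMM as for all marker sums here, was 2590, against 1.99 to 14.9 in the other 13 libraries. Ngp, a granule protein gene, led that sum. Of the 9 tested neutrophil genes edgeR called 1 higher at 20 days and none at 1 day (none at an unadjusted p under 0.05, and none by DESeq2). It also had the highest summed mitosis level of its group, 5826 CPM. Without it the 20-day median was 0.35 with 11 genes called, and without it and PBS replicate 4 together the median was 0.32 with 16 called, a setting chosen after the data were seen. Over all tested genes 403 and 405 were called higher in those fits, against 609 in the full fit.

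Other markers differed between groups as well. For every marker list, the share of all tested genes that edgeR called higher was 2.52% at 1 day and 3.94% at 20 days. The share called lower was 1.83% and 3.52%. Flt3 (which encodes Flk2) and Cd48, whose products the sort excludes, summed to 43.9, 60.1, 56.5 and 65.6 CPM with PBS and to 100.0, 84.2, 144 and 148 with IL-1β. Both were called higher at 20 days, Flt3 by 1.02 ± 0.15 (edgeR adjusted p = 0.000768) and Cd48 by 1.10 ± 0.26 (0.0197). At 1 day their sum, most of it Flt3, overlapped between groups, at 46.8 to 67.6 CPM with PBS and 48.1 to 57.4 with IL-1β. There edgeR called neither gene (1 higher at an unadjusted p under 0.05, 1 by DESeq2). Cd48 alone, in TMM-scaled CPM, did not overlap at 1 day, at 3.78, 3.97 and 6.01 with PBS and 8.64, 8.7 and 10.2 with IL-1β. At 20 days Cd48 did overlap, with IL-1β replicate 4 at 3.41 and PBS replicate 4 at 3.63. The 6 genes listed as markers of committed progenitors were Cd34, Ms4a3, Irf8, Csf1r, Dntt and Il7r. They summed to 330 to 442 CPM with PBS and 435 to 490 with IL-1β at 20 days, and to 399 to 424 and 472 to 479 at 1 day. Cd34 made up most of the sum in every library. Irf8 overlapped at 20 days, at 8.92 to 14.1 TMM-scaled CPM with PBS and 8.92 to 12.2 with IL-1β. Cd34 and Csf1r overlapped there as well. Ms4a3 overlapped at neither duration. Every IL-1β library lay above every PBS library of its duration for Ms4a3, and the gap was wider at 20 days. Dntt, read at much lower levels, did not overlap either. Of the 5 tested genes of this list none was called at 1 day by edgeR (3 higher at an unadjusted p under 0.05, 2 called by DESeq2) and 2 rose at 20 days. The 8 stem cell markers, among them Kit and Slamf1, were present in every library. They summed to 3240, 3640 and 2370 CPM with PBS and 2360, 2620 and 1810 with IL-1β at 1 day, lower with IL-1β within either naming set. At 20 days they summed to 2280 to 3350 CPM with PBS and 2640 to 2790 with IL-1β. Of the 8, edgeR called 1 lower at 1 day (3 lower at an unadjusted p under 0.05, 2 by DESeq2), and 1 higher, Slamf1, and 1 lower at 20 days. The part of these genes' cells in the mitosis result was not tested.

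Markers of mature cells were given the same way, with the same shares over all tested genes. The 11 macrophage genes summed to 64.2 to 70.8 CPM with PBS and 36.7 to 46.5 with IL-1β at 1 day, with 1 called lower, and to 40.5 to 73.6 and 35.1 to 44.2 at 20 days, with 4 called lower and 1 higher. The 12 erythroid genes summed to 1560 to 2260 CPM, most of it Car2. Of the 9 tested erythroid genes 1 was called higher at 1 day, and 3 higher and 1 lower at 20 days. The 7 B cell genes in the table summed to 39.2 to 62.8 CPM, mostly Cd79b, with Cd79a at 1.35 or less. Of the 3 T and NK cell genes in the table Nkg7, a cytotoxic granule gene, made up most of the sum, with Cd3d at 0.135 CPM or less. That sum was 35.9 to 52.4 CPM with PBS and 78.4 to 93.4 with IL-1β at 20 days, and 39.4 to 66.9 and 53.6 to 74.2 at 1 day. Nkg7 was higher by 1.07 ± 0.14 at 20 days (edgeR adjusted p = 0.000292) and was not called at 1 day (0.54 ± 0.16, adjusted p = 0.068). Mast cell and basophil genes summed to 27.6 CPM in IL-1β 20-day replicate 3 and to 4.55 to 9.72 in the other 13 libraries, with 2 of 3 tested genes called higher at 20 days. The part of these cell types in the mitosis result was not tested.

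The 10 genes that start mitosis all rose at 1 day (median 0.92), and 6 of them were higher at 20 days (median 0.45). Ccnb1 (ENSMUSG00000041431, chr13:100778650-100786570 on GRCm38, minus strand) encodes cyclin B1, the partner that activates CDK1. With PBS for 1 day Ccnb1 read 88.8, 85.1 and 102 CPM, and with IL-1β 206, 188 and 159. The 20-day libraries gave Ccnb1 levels of 80.4, 80.5, 72.4 and 67.5 CPM with PBS and 107, 119, 104 and 90.4 with IL-1β. No IL-1β library overlapped a PBS library of its duration, and the gap was wider at 1 day. The effects on Ccnb1 were 1.00 ± 0.11 at 1 day (edgeR adjusted p = 0.00036) and 0.48 ± 0.10 at 20 days (adjusted p = 0.00771). Its relatives Ccnb2, another B-type cyclin, and Ccna2, the cyclin of S phase and G2, rose by 0.86 and 0.97 at 1 day and were higher by 0.45 and 0.39 at 20 days.

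Cdk1 (ENSMUSG00000019942, chr10:69335146-69352938, minus strand) is the gene of the kinase itself. Its effect was not tested against those of its cyclins. Cdk1 read 140.5, 124 and 141 CPM with PBS and 257, 234 and 213 with IL-1β at 1 day, without overlap. At 20 days Cdk1 read 111, 129.6, 124 and 117 CPM with PBS and 134, 162, 115 and 95.4 with IL-1β. There the lowest of all 8 values and the highest both came from IL-1β libraries, replicates 4 and 2. Its effect was 0.79 ± 0.13 at 1 day (edgeR adjusted p = 0.00358) and 0.05 ± 0.12 at 20 days (adjusted p = 0.881). Within the naming sets of 20 days the sign of the Cdk1 effect split, at 0.30 in "E061316" and -0.20 in the untagged set. It also turned to -0.06 without PBS 20-day replicate 1 and without IL-1β 20-day replicate 2.

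The phosphatase genes Cdc25b and Cdc25c encode proteins that switch CDK1 on, and their effects were not tested against each other. Cdc25c read 18.9, 18.8, 19.9 and 19.1 CPM with PBS and 32.1, 29.9, 34.8 and 27.2 with IL-1β at 20 days. Those PBS values lay close together and below every IL-1β value, and the effect of 0.69 ± 0.11 (edgeR adjusted p = 0.00175) followed one of 0.88 ± 0.13 at 1 day. Cdc25b rose by 0.57 ± 0.13 at 1 day (adjusted p = 0.025), the smallest of the 42 called effects, and stood at 0.34 ± 0.11 at 20 days without a call (adjusted p = 0.0935). The call of Cdc25b at 1 day was lost in 4 of the 14 fits that leave out a library. Over all 10 entry genes the 20-day effects spanned 0.05 (Cdk1) to 0.69 (Cdc25c).

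Among the kinases of mitotic entry, Plk1 encodes Polo-like kinase, Aurka the Aurora kinase of the spindle poles and Nek2 a centrosome kinase. Aurka read 83.3, 68.8 and 85.3 CPM with PBS and 164, 167 and 145 with IL-1β at 1 day. For Aurka the 20-day values were 63.3, 68.9, 60.6 and 65.7 CPM with PBS and 103, 98.1, 96.5 and 80.0 with IL-1β. Neither duration showed overlap, and the effects were 1.00 ± 0.11 and 0.54 ± 0.10. Plk1 and Nek2 rose by 0.98 and 0.96 at 1 day, and their 20-day values of 0.45 ± 0.14 and 0.38 ± 0.12 were not called (edgeR adjusted p = 0.0567 and 0.0763). Foxm1, the transcription factor that drives many genes of this set, rose by 0.83 ± 0.15 at 1 day and was higher by 0.47 ± 0.13 at 20 days (adjusted p = 0.04).

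The 4 genes of the chromosomal passenger complex, which corrects faulty attachments and later marks the cleavage site, all rose at 1 day (median 0.88). Of these, 3 were higher at 20 days (median 0.34). Aurkb, its kinase, read 123, 116 and 133 CPM with PBS and 256, 227 and 208 with IL-1β at 1 day. At 20 days Aurkb read 102, 111, 103 and 109 CPM with PBS and 136, 146, 138 and 114 with IL-1β. The closest 20-day values were an IL-1β library at 114 and a PBS library at 111, so that groups that stood far apart at 1 day were nearly touching. Birc5 (survivin) and Incenp, the scaffold, gave 0.91 and 0.87 at 1 day and 0.41 and 0.34 at 20 days. Cdca8 (borealin) rose by 0.78 ± 0.14 at 1 day and was not called at 20 days (0.34 ± 0.12, edgeR adjusted p = 0.107).

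The spindle checkpoint genes Bub1, Bub1b, Mad2l1 and Ttk, whose products hold back anaphase at unattached kinetochores, all rose at 1 day (median 0.90). Bub1b, which encodes BubR1, read 174, 178 and 182 CPM with PBS and 392.1, 342 and 309 with IL-1β at 1 day. For Bub1b at 20 days the levels were 146, 185, 138 and 127 CPM with PBS and 187, 212, 190.2 and 176 with IL-1β. PBS replicate 2 there lay above 1 of the 4 IL-1β libraries, and the effect of 0.37 ± 0.10 was still called (edgeR adjusted p = 0.0305). Bub1 was higher at 20 days as well (0.47 ± 0.12), while Mad2l1 (0.29 ± 0.12) and Ttk (0.58 ± 0.19) were not called. Ttk, the kinase MPS1, read 18.5 CPM in PBS 20-day replicate 4, against 43.6 ± 3.4 (SD, n = 3) over the PBS libraries of 1 day.

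Of the 7 centromere and kinetochore genes all rose at 1 day (median 0.85) and 4 were higher at 20 days (median 0.37). Cenpa, the histone variant that marks centromeres, read 108, 99.9 and 119.5 CPM with PBS and 195, 190.5 and 183 with IL-1β at 1 day. Its 20-day levels were 92.2, 90.5, 105 and 109 CPM with PBS and 147, 141, 182 and 166 with IL-1β. Every IL-1β value of Cenpa exceeded every PBS value at both durations. Its effects of 0.80 ± 0.09 and 0.68 ± 0.07 were the closest to each other of the called members apart from Kif4 (edgeR adjusted p at 20 days = 0.000103, the smallest of the 44). Cenpe, a kinetochore motor, was higher by 0.54 ± 0.11 at 20 days, while Cenpf, a large coiled-coil protein of the outer kinetochore, was at 0.24 ± 0.13 without a call.

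The 4 genes of the NDC80 complex, the rod that grips the microtubule, had 2 members called at 20 days. Ndc80 and Nuf2, which pair at the microtubule end, were higher by 0.37 ± 0.09 and 0.45 ± 0.10. Spc24 and Spc25, which pair at the chromosome end, were at 0.15 ± 0.13 (edgeR adjusted p = 0.57) and 0.36 ± 0.12 (adjusted p = 0.0938). Spc24 read 66.7, 68.5, 66.2 and 87.0 CPM with PBS and 84.3, 95.8, 72.7 and 69.3 with IL-1β at 20 days. PBS replicate 4 was above 3 of the 4 IL-1β libraries there, and the effect within the untagged set was -0.11. At 1 day all 4 rose, by 0.65 (Spc25) to 0.92 (Spc24). Differences between genes within the complex were not tested.

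All 8 genes of spindle motors and microtubule binders were called at both durations (medians 0.92 and 0.49), and 5 of them, Kif11, Kif22, Tpx2, Nusap1 and Hmmr, lost the 20-day call in at least 1 fit with a library left out. Kif2c (ENSMUSG00000028678, chr4:117159639-117182639, minus strand) encodes MCAK, which takes microtubules apart at centromeres. At 1 day Kif2c read 76.0, 63.8 and 66.8 CPM with PBS and 161, 166 and 132 with IL-1β. At 20 days Kif2c read 63.5, 74.6, 47.5 and 54.3 CPM with PBS and 105, 91.5, 88.3 and 93.6 with IL-1β. Neither pair of groups overlapped, and its 1.15 ± 0.12 at 1 day was the largest effect among the 44 (edgeR adjusted p = 0.000233). The 20-day effect of 0.67 ± 0.10 (adjusted p = 0.00122) was among the 4 that reached 1.5-fold.

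Kif4 (ENSMUSG00000034311, chrX:100625737-100727214, plus strand), a chromosome-bound motor, had the largest 20-day effect, 0.92 ± 0.17 (edgeR adjusted p = 0.00389). Kif4 read 51.9, 58.4, 27.3 and 31.04 CPM with PBS and 75.8, 73.4, 76.7 and 78.4 with IL-1β at 20 days. The 4 IL-1β values lay within a few CPM of each other, while the PBS values split by naming set, with the untagged replicates 3 and 4 far below replicates 1 and 2. Within the naming sets the Kif4 effect was 0.44 in "E061316" (adjusted p = 0.0924) and 1.41 in the untagged set. With 1 library left out it stayed between 0.77 and 1.04, with adjusted p from 0.00264 to 0.0184. At 1 day Kif4 read 53.9, 68.0 and 59.0 CPM with PBS and 132, 137 and 96.4 with IL-1β, an effect of 1.00 ± 0.19. Exons of Pdzd11, on the other strand, cover 15.09% of the exon bases of Kif4, and reads of the 2 genes there cannot be told apart by strand.

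Kif11, the motor that pushes spindle poles apart, read 158, 164 and 136 CPM with PBS and 366, 333 and 200.5 with IL-1β at 1 day. Its IL-1β replicate 3, of the "10k" set, was much lower than the other IL-1β libraries and above all PBS libraries. The other members of the group are Kif15, a motor that can stand in for Kif11, Kif22, which moves chromosome arms, Tpx2, which activates Aurora A on the spindle, Nusap1 and Hmmr, which bind spindle microtubules. Their effects ran from 0.70 (Hmmr) to 0.93 (Nusap1) at 1 day and from 0.36 (Kif22) to 0.50 (Hmmr) at 20 days.

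The 4 genes of anaphase onset had 3 that rose at 1 day and 1 that was higher at 20 days (medians 0.925 and 0.25). Cdc20 (ENSMUSG00000006398, chr4:118432901-118437352, minus strand) encodes the activator of the anaphase-promoting complex. Cdc20 read 171, 154 and 224 CPM with PBS and 308, 323 and 323 with IL-1β at 1 day, an effect of 0.81 ± 0.11. At 20 days Cdc20 read 144, 158, 139 and 169.7 CPM with PBS and 166, 181, 174 and 160.3 with IL-1β. The 1-day groups stood well apart and the 20-day groups overlapped, with an effect of 0.16 ± 0.09 (edgeR adjusted p = 0.386). Ube2c, the ubiquitin-conjugating enzyme of that complex, read 67.6, 64.7, 77.4 and 98.6 CPM with PBS and 92.3, 99.5, 110.1 and 86.2 with IL-1β at 20 days. There PBS replicate 4 was above 2 of the IL-1β libraries, and its effect was 0.35 ± 0.13 after 1.04 ± 0.15 at 1 day.

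Espl1 (ENSMUSG00000058290, chr15:102296266-102324357, plus strand) encodes separase, the protease that opens cohesin. Espl1 read 63.8, 67.4 and 62.7 CPM with PBS and 136, 130.3 and 134 with IL-1β at 1 day. At 20 days Espl1 read 64.6, 64.6, 60.8 and 72.0 CPM with PBS and 77.2, 80.2, 100.2 and 83.0 with IL-1β. The groups did not overlap at either duration, with effects of 1.04 ± 0.10 (edgeR adjusted p = 0.00012) and 0.38 ± 0.09 (adjusted p = 0.0187).

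Pttg1 (ENSMUSG00000020415, chr11:43420250-43426251, minus strand) encodes securin, the inhibitor that holds separase in check until anaphase. Pttg1 read 40.2, 36.1 and 43.9 CPM with PBS and 36.2, 40.1 and 49.7 with IL-1β at 1 day. At 20 days Pttg1 read 38.3, 35.6, 44.4 and 60.1 CPM with PBS and 48.7, 38.2, 50.7 and 50.3 with IL-1β. Groups overlapped at both durations, the lowest 1-day values coming from both treatments, and PBS 20-day replicate 4 was the highest of all 14. Its effects of 0.06 ± 0.14 (edgeR adjusted p = 0.879) and 0.09 ± 0.12 (adjusted p = 0.748) were the smallest of the 44 at 1 day and among the smallest 2 at 20 days. Within naming sets the Pttg1 effect was 0.18 and -0.000425 at 1 day and 0.23 and -0.05 at 20 days. No exon of another gene overlaps it in the annotation used. Separase RNA thus had a fitted fold of 2.06 at 1 day and securin RNA one of 1.04.

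Of the 5 genes of the central spindle and cytokinesis, 4 rose at 1 day (median 0.78) and 3 were higher at 20 days (median 0.47). Prc1, which bundles the microtubules between the separating chromosomes, read 167, 158, 136 and 108 CPM with PBS and 206, 202, 218 and 171 with IL-1β at 20 days, without overlap. Its effects were 0.80 ± 0.12 and 0.50 ± 0.11. Anln (anillin, of the contractile ring) gave 0.63 ± 0.11 and 0.47 ± 0.10, and Kif20a, a central spindle motor, 0.86 ± 0.13 and 0.40 ± 0.11. Kif23, whose product forms centralspindlin, rose at 1 day (0.75 ± 0.18, edgeR adjusted p = 0.032) and was not called at 20 days (0.39 ± 0.16). Exons of Cdc23, on the other strand, cover 29.3% of the exon bases of Kif20a.

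Ect2, the exchange factor that starts the cleavage furrow, was not called at either duration. Ect2 read 78.9, 60.0 and 44.7 CPM with PBS and 129, 140.5 and 59.4 with IL-1β at 1 day. At 20 days Ect2 read 50.4, 53.3, 48.6 and 19.6 CPM with PBS and 59.7, 58.1, 77.1 and 49.7 with IL-1β. The "10k" libraries were the lowest of both 1-day groups, and the untagged PBS replicate 4 at 19.6 was the lowest of all. Its 1-day effect of 0.78 ± 0.27 (edgeR adjusted p = 0.125) had the largest SE of the 44. Without PBS 20-day replicate 4, which shares the estimate of spread, the same effect was 0.79 ± 0.15 (adjusted p = 0.0066), and with the 1-day libraries alone 0.78 (adjusted p = 0.0065). Over all 14 fits with 1 library left out the adjusted p ran from 0.0066 to 0.411. At 20 days it was 0.54 ± 0.24, and 0.26 ± 0.15 without that library, neither being called.

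Top2a, the topoisomerase that untangles sister chromatids, and Mki67, which encodes the Ki-67 antigen coating mitotic chromosomes, rose at 1 day and were higher at 20 days. Top2a read 449, 489.6 and 433 CPM with PBS and 912, 788 and 624 with IL-1β at 1 day. Its 20-day levels were 417, 453, 369 and 308 CPM with PBS and 547, 522, 524 and 434 with IL-1β. The 20-day groups overlapped through PBS replicate 2 and IL-1β replicate 4, and the 1-day groups did not. The effects on Top2a were 0.75 ± 0.11 and 0.40 ± 0.10. Mki67 read 179, 185, 174 and 202 CPM with PBS and 214, 208, 289 and 235 with IL-1β at 20 days, without overlap, with effects of 0.67 ± 0.11 and 0.34 ± 0.10.

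**Figure D3:**
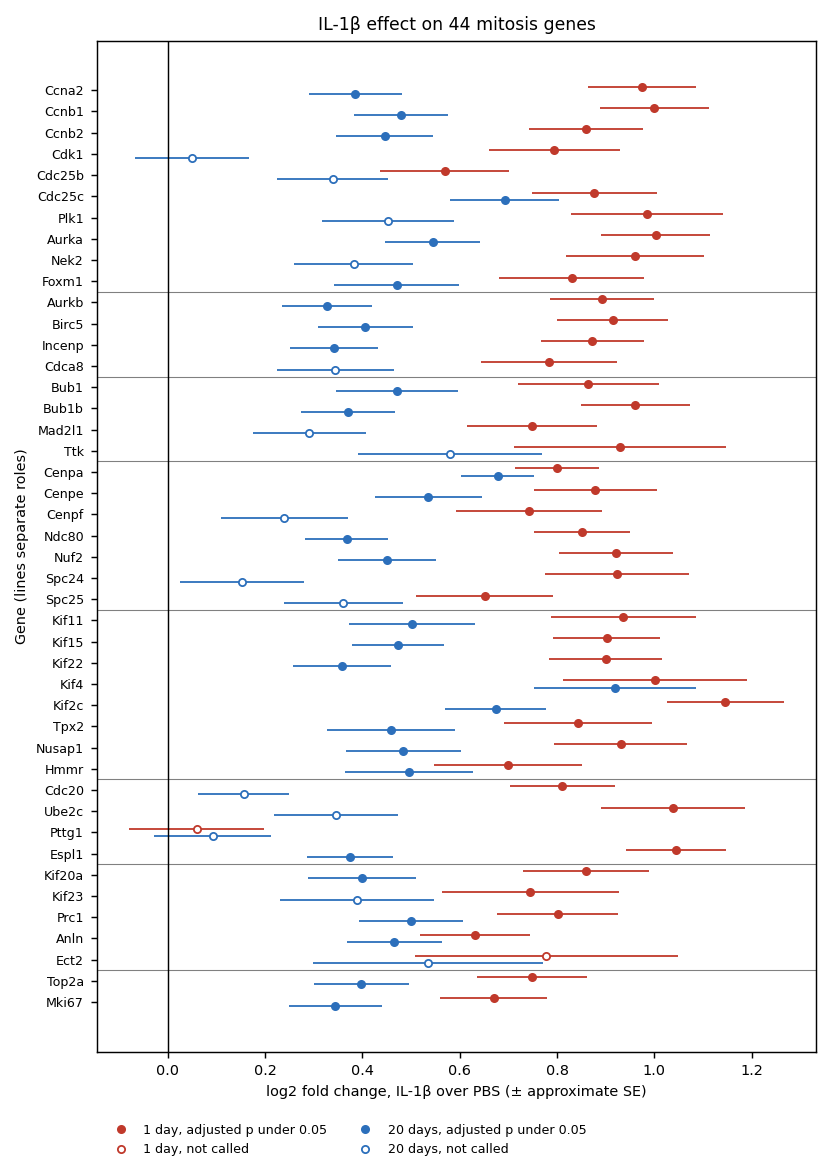
Fitted log2 fold change of IL-1β over PBS for each mitosis gene, with an approximate SE, at 1 day (red) and 20 days (blue), grouped by role; filled points have an adjusted p under 0.05. The 1-day effect exceeds the 20-day effect for 43 of the 44 genes, and Pttg1 lies near 0 at both durations.

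The 20-day response was smaller than the 1-day response for 43 of the 44 genes, by a median of 0.44 on the log2 scale. The difference itself passed the test for 3 genes, all lower at 20 days, where 0.989% of tested genes were called lower and 1.15% higher (2.14% in all). They were Cdk1 (-0.74 ± 0.18, edgeR adjusted p = 0.0461), Espl1 (-0.67 ± 0.13, adjusted p = 0.0285) and Cdc20 (-0.65 ± 0.14, adjusted p = 0.0367). For 28 genes the difference was negative with an unadjusted p under 0.05. Spc24 had the largest fitted difference, -0.77 ± 0.19, and missed the threshold (adjusted p = 0.0554). Kif4 (-0.08 ± 0.25), Cenpa (-0.12 ± 0.11) and Anln (-0.17 ± 0.15) had the smallest differences below 0, and Pttg1 was the single gene above it (0.03 ± 0.18). The 13 genes called at 1 day and not at 20 days are therefore not shown to differ, apart from Cdk1 and Cdc20. The number of calls depended on single libraries: the count was 0 without any 1 of 6 libraries (18 to 26 genes lower at an unadjusted p under 0.05), namely both "E060216" replicates of either 1-day group and IL-1β 20-day replicates 1 and 4, and 13 without PBS 20-day replicate 4. With a library left out the adjusted p reached 0.158 for Cdk1, 0.135 for Cdc20 and 0.0985 for Espl1, while their differences stayed between -0.86 and -0.57. The count was 16 with DESeq2, 0 without the naming set term (21 genes lower at an unadjusted p under 0.05) and 10 with length and GC offsets. Over all tested genes the lower calls were 153 in the full fit, and 609, 7 and 310 in those fits, in that order. They were 8 to 49 in the fits with a library left out where the count was 0, and 281 without PBS 20-day replicate 4. Naming sets are nested in durations, so a difference between sets and a difference between durations cannot be told apart.

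Levels across durations followed the same line. Mean PBS levels were lower at 20 days than at 1 day for 42 of the 44 genes, with a median ratio of 0.849, and this comparison has the same nesting. IL-1β at 20 days stood at a median of 0.623 times IL-1β at 1 day and 1.14 times PBS at 1 day, above the latter in 39 genes. The summed level with IL-1β for 20 days, 4871 to 5826 CPM, overlapped that with PBS for 1 day, 4582 to 5082. Across the 44 genes, the 1-day and 20-day effects had a Pearson r of 0.43, a description over genes that are not independent.

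Effects differed in size between the naming sets of each duration. At 1 day the median was 1.02 in "E060216" (2 libraries against 2) and 0.62 in "10k" (1 against 1). All 44 effects were positive in "10k", from 0.18 (Pttg1) to 1.09 (Espl1), and edgeR called 0 of them there, where it called 0.0129% of tested genes higher. In that set 35 of the 44 were higher at an unadjusted p under 0.05, and DESeq2 was not run within sets. In "E060216", 42 were called, where 4.74% of tested genes were. At 20 days the median was 0.39 in "E061316", with 6 genes called against 1.3% of tested genes, and 0.48 in the untagged set, with 25 called against 5.7%. All 44 effects were positive in "E061316", from 0.07 (Cenpf) to 0.72 (Cdc25c), and 41 in the untagged set, with Cdk1, Spc24 and Pttg1 below 0. Differences between the sets were not tested.

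**Figure D4:**
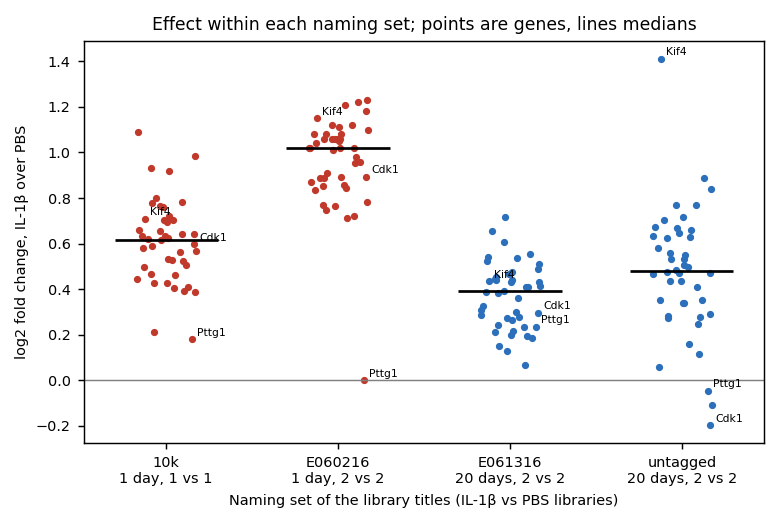
Log2 fold change of IL-1β over PBS for each of the 44 genes (points) within each naming set, with the median as a line. The 1-day medians are 0.62 and 1.02 and the 20-day medians 0.39 and 0.48, and Pttg1 lies between -0.05 and 0.23 in the 4 sets while Kif4 is at 1.41 in the untagged set.

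Some libraries deviated by transcript length and base composition. In PBS 20-day replicate 4, the deviation of a gene from the mean of the other libraries of its group had a Pearson r with log transcript length of -0.419 over the 44 genes and of -0.371 over 14615 tested genes. Its r with GC content was 0.561 over the 44. In PBS 1-day replicate 3 ("10k") these were -0.492, -0.241 and 0.596, and in IL-1β 1-day replicate 3 of the same set -0.277, -0.27 and 0.467. PBS 20-day replicate 1 deviated the other way, at 0.505, 0.274 and -0.491. Against the other libraries of its group PBS 20-day replicate 4 was lowest for Ect2 (-1.35) and highest for Pttg1 (0.61). Split at the middle by length, the 22 shorter genes (947 to 2965 bases) had medians of 0.91 at 1 day and 0.40 at 20 days, and the 22 longer ones (3008 to 11130 bases) 0.82 and 0.43. At 1 day 21 genes of either part were called, and at 20 days 14 and 15. With offsets for length and GC, added after the data were seen, 42, 30 and 10 genes were called for 1 day, 20 days and the difference. Over all tested genes that fit called 521 and 738 higher and, for the difference, 310 lower.

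**Figure D5:**
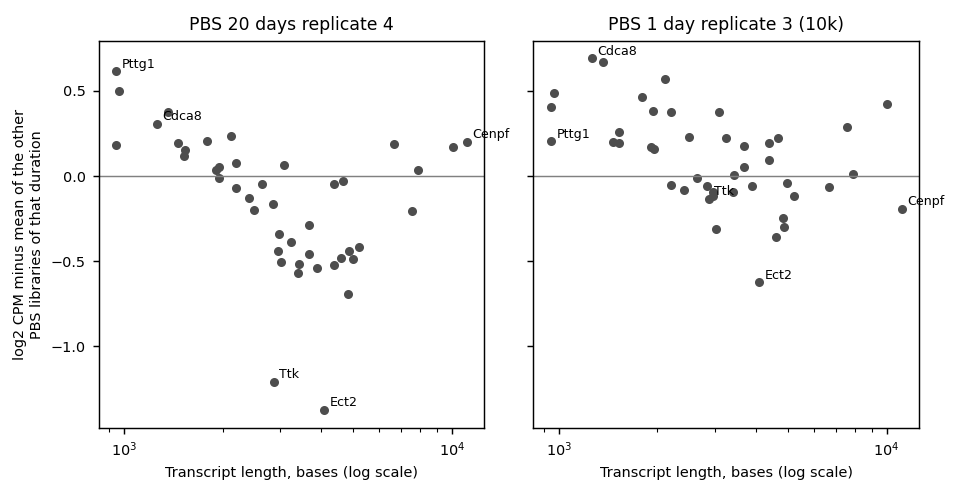
Deviation of each mitosis gene in PBS 20-day replicate 4 (left) and PBS 1-day replicate 3 (right), as log2 CPM minus the mean of the other PBS libraries of that duration, against transcript length on a log axis. Short transcripts such as Pttg1 and Cdca8 lie above 0, and Ect2 lies lowest in both libraries.

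Between genes, levels were compared per kilobase of transcript. The length was that of 1 transcript per gene, the one with the longest coding sequence, while reads were counted per gene. For Cdca8 that was 1264 bases, against 5177 in all its exons together, so the order of genes depends on this choice. With PBS for 1 day they ran from 8.38 CPM per kb for Cenpe to 127 for Cdca8, with a median of 31.4. Birc5 (118), Cdc20 (102), Ube2c (96.4), Ccnb2 (95.1) and Top2a (87.5) followed Cdca8, and Pttg1 (42.3) was above the median. Across the 14 libraries the log2 level of Ccnb1 followed the mean of the other members most closely, with a Pearson r of 0.99. Pttg1 had the lowest, -0.194, followed by Ect2 at 0.783. These values share libraries, depth and the treatment groups, and are given as descriptions.

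Other mitosis genes were taken as lists of complexes and followed in the same fit, with no test between lists. Of 112 tested, 52 rose and none fell at 1 day (median 0.46), where 1 was lower at an unadjusted p under 0.05 and DESeq2 called 64 higher and 0 lower. At 20 days 27 were higher and 1 lower (median 0.18). Over all tested genes edgeR called 2.52% higher and 1.83% lower at 1 day, and 3.94% and 3.52% at 20 days. These shares stand beside each list of mitosis genes that follows as well. Of the 8 condensin subunits, which compact chromosomes, 7 rose at 1 day and 4 were higher at 20 days. Ncapd2 gave 0.87 ± 0.08 and 0.33 ± 0.07, and its difference between durations was called (-0.54 ± 0.10, edgeR adjusted p = 0.0248). Of 20 other spindle and cytokinesis genes 14 rose at 1 day and 13 were higher at 20 days. Among them were Ccnf, an F-box protein of G2 (1.16 ± 0.11 at 1 day), Racgap1, the partner of Kif23 (0.86 ± 0.10 at 1 day), and Ckap2l, a spindle protein (0.73 ± 0.10 at 20 days).

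Kinetochore and checkpoint genes outside the set were followed next. The inner kinetochore and KMN network list had medians of 0.62 at 1 day and 0.21 at 20 days. For the other checkpoint and kinetochore-associated genes they were 0.84 and 0.33. Of 18 inner kinetochore and KMN network subunits 10 rose at 1 day and 3 were higher at 20 days, with Casc5, the KNL1 scaffold, at 0.98 ± 0.12 and 0.40 ± 0.10. Of 12 other checkpoint and kinetochore-associated genes 8 rose at 1 day and 3 were higher at 20 days, with Sgol1, a shugoshin that guards centromeric cohesin, at 0.85 ± 0.13 and 0.40 ± 0.11. Sgol2a, its relative, had the largest 20-day effect of that list, 0.97 ± 0.18 (edgeR adjusted p = 0.00452). Of 9 regulators of mitotic entry and exit 4 rose at 1 day and 3 were higher at 20 days. Mastl, the Greatwall kinase, gave 1.07 ± 0.17 and 0.65 ± 0.15, and Fbxo5 (EMI1), an inhibitor of the anaphase-promoting complex, 0.58 ± 0.10 and 0.37 ± 0.09.

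In complexes that serve beyond mitosis most genes were not called, though the share called at 1 day was above the 2.52% of all tested genes. Of 14 core subunits of the anaphase-promoting complex 2 rose at 1 day, Anapc15 (0.66 ± 0.14) and Anapc5 (0.32 ± 0.08). At 20 days edgeR called none (4 higher at an unadjusted p under 0.05) and DESeq2 none. Of 11 cohesin genes 2 rose at 1 day, Cdca5 (0.70 ± 0.12), which encodes sororin, and the acetyltransferase gene Esco2 (0.81 ± 0.15). At 20 days edgeR called none of them (3 higher unadjusted), nor did DESeq2. Of 11 DREAM and MuvB genes 2 rose at 1 day, Mybl2 (0.89 ± 0.11), which encodes B-MYB, and Tfdp1 (0.45 ± 0.10). At 20 days edgeR and DESeq2 called none (0 higher and 1 lower unadjusted), and the Mybl2 response was lower than at 1 day (-0.95 ± 0.15, adjusted p = 0.00925). Of 9 tested tubulins 3 rose at 1 day, led by Tubb5 (0.74 ± 0.13), while at 20 days Tuba1a was higher (0.57 ± 0.09) and Tubb6 lower (-1.24 ± 0.17). At 1 day 3 anaphase-promoting complex and 4 cohesin genes were higher at an unadjusted p under 0.05, and DESeq2 called 2 in each list. For DREAM and MuvB genes those counts were 6 and 4. For tubulins they were 6 and 4, with 1 lower unadjusted.

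DNA replication, the program of S phase that precedes mitosis, was followed with 37 genes. Of these, 21 rose at 1 day (median 0.60), against the 2.52% of all tested genes. At 20 days 1 was higher (median -0.06), a share near the 3.94% of all tested genes, namely Rrm2, a subunit of ribonucleotide reductase (0.98 ± 0.11 and 0.44 ± 0.10). The 20-day response was smaller in all 37 and the difference was called for 9, against 0.989% of all tested genes called lower, among them Pold1 (-0.62 ± 0.12), Tk1 (-0.91 ± 0.18) and Lig1 (-0.79 ± 0.17). With DESeq2 34 rose at 1 day, 2 were higher at 20 days and the difference was called for 30. Over all tested genes DESeq2 called 741 and 922 higher and, for the difference, 609 lower. A contrast between the 2 programs was not tested.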

How the data were processed

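The authors deposited 1 table of raw counts of reads per gene. Per the labels' protocols, libraries were made with SMARTer and Nextera XT kits and read as 100-nucleotide single ends. Per the submitters' processing notes, the genome build was GRCm38.p4 and the tools, in no stated order, were STAR 2.4.2a, Trimmomatic 0.32, DESeq2 1.12.3, HTSeq 0.6.1, Cuffdiff and Cufflinks 2.0.2. Their settings and the gene annotation were not given in the sources used. The SMARTer chemistry does not mark strand, so reads of overlapping genes, which touch 15 of the 44 genes, cannot be told apart.

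The counts were fitted with edgeR 4.0.16 (R 4.3.3, limma 3.58.1): filterByExpr with a minimum count of 10, TMM, and the quasi-likelihood F-test. The model, over all 14 libraries, had naming set terms and 1 treatment effect per duration (8 residual degrees of freedom). It was first tested on simulated data. Benjamini-Hochberg adjustment ran over 15466 genes with a threshold of 0.05, and SEs were derived from the effect and its F statistic. Replicates differed by more than sampling noise (chi-square per degree of freedom of 10.4 to 75.4 over 18 pairs). Alternatives were other scalings, no low-count filter, DESeq2 1.42.0, other designs, each library left out, and length and GC offsets. The 44 genes, the pathway lists and the marker lists were chosen with earlier results of these data known. Beside the 44, genes were named by the lowest adjusted p among called genes of each list. Lengths, GC and gene coordinates came from GENCODE M21 on GRCm38, and promoters from RefSeq.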

Additional observations from a re-analysis of the deposited data

Results flagged for a closer look

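Of 90 groups of 4 values examined for a library that stands far from the rest, 9 held one. Each group came from the 4 PBS or the 4 IL-1β libraries of 20 days. Chance gives about 1 in 20 for a group taken singly. The 90 groups reuse the same libraries and are not independent, so the count of 9 cannot be set against that rate. Cdca8 in PBS replicate 4 and Ccnb2 in IL-1β replicate 4 only just reached the cut-off. PBS 20-day replicate 4 stood apart for 5 genes. It was the highest of its group for Ccnb2 (127 CPM, next 115), Cdca8 (157, next 130) and Spc24 (87.0, next 68.5), and the lowest for Hmmr (58.8, next 82.8) and Ect2 (19.6, next 48.6). IL-1β 20-day replicate 4 was the lowest of its group for Ccnb2 (138 CPM, next 164) and Nusap1 (128, next 170). PBS 20-day replicate 2 was the lowest for Cenpe (58.5 CPM, next 63.3), and IL-1β 20-day replicate 2 the lowest for Pttg1 (38.2, next 48.7).

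The test of the difference between durations found a smaller effect at 20 days for Cdk1 (-0.745 on the log2 scale), Cdc20 (-0.655) and Espl1 (-0.669). Naming sets differ between the durations as well, and the 2 cannot be told apart.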

How the results depend on the processing

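The 42 calls at 1 day stayed within 33 to 43 under every alternative run except within the "10k" set (0 called, 35 at an unadjusted p under 0.05). The 1-day median of 0.87 was 0.62 in "10k", 1.02 in "E060216" and 0.82 to 1.02 with a library left out. For other mitosis genes the medians were 0.46 at 1 day and 0.18 at 20 days. The 29 calls at 20 days became 9 without the naming set term, 19 with that duration alone, 16 without both IL-1β replicate 3 and PBS replicate 4, and 11 to 30 with a library left out. The 3 called differences became 6 with RLE factors, 6 with upper-quartile factors, 16 with DESeq2, 0 without the naming set term, 10 with length and GC offsets, 9 without that pair of libraries and 0 to 13 with a library left out. Calls over all tested genes changed with the setting as well. Lower calls for the difference were 153 in the full fit, 609 with DESeq2 and 7 without the naming set term.

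Signs turned for Pttg1 (-0.000425 in "E060216", -0.0472 in the untagged set), Spc24 (-0.11, untagged) and Cdk1 (-0.20, untagged) at 20 days, apart from the first, which was at 1 day. With a library left out, the 20-day effects ran from -0.061 to 0.135 for Cdk1 and from -0.00976 to 0.215 for Pttg1. The cause was not tested.

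With the replicate number as a block (5 residual degrees of freedom) 41, 18 and 0 genes were called for 1 day, 20 days and the difference. Over all tested genes that fit called 242 and 363 higher and, for the difference, 3 lower. Same-numbered libraries correlated in their deviations at -0.0367 to 0.257, so the numbers were not taken as pairs, and 4 of 7 PBS libraries matched their own number best. The counts limit no member, at 423 or more in every library.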
